A study of Sus scrofa with 9 samples.

Results

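CD3D, CD3E, CD3G, CD2, CD8A, CCL5, LCK, CD247, GZMA and NKG7 are marker genes of T cells and natural killer (NK) cells. They were followed here in liver RNA of Wujin pigs fed 3 levels of iron. The 10 genes were chosen by symbol as known markers of these cells. The symbol GZMA stands on 2 neighbouring genes of the annotation, named GZMA and GZMA-2 as there, so the list holds 11 genes of the 25918 in the table. All 11 had a mean of at least 0.5 FPKM (fragments per kilobase of transcript, scaled to the mapped fragments of the library) over the 9 libraries and were tested among 12584 such genes.

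T cells recognise antigen through the T cell receptor, which sends its signal into the cell through the CD3 chains and the zeta chain encoded by CD247. The kinase LCK, bound to the co-receptors CD4 and CD8, starts that signal. NK cells carry no such receptor and share with cytotoxic T cells the granule proteins that kill a target cell and the chemokine CCL5. The liver is known as an organ rich in NK cells and cytotoxic T cells, which lie in its sinusoids among the hepatocytes and Kupffer cells.

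The piglets of the study were 35 days old at the start, of both sexes, and each was kept alone. The sex of each sequenced animal is not stated. The low-iron group ate a basic diet with 0 mg/kg of added iron, the control group the same diet with 100 mg/kg and the high-iron group the same diet with 200 mg/kg, given as iron glycinate. The livers were taken after a prefeeding period of 5 days and a formal period of 30 days, and 3 per group were sequenced as poly(A) RNA. Each library is 1 animal and is named by its group and animal number, low-iron 2, 3 and 7, control 4, 5 and 6, and high-iron 2, 7 and 8. The sum of FPKM per library was 416922 to 456420, with 16235 to 17817 genes above 0. Read counts per gene are not part of the table, and the number of fragments behind each value was not worked out. The only error used is the spread between livers of the same group. For the fitted fold changes it was pooled over the 3 groups and drawn by limma towards the trend over all genes tested. In the fit of all libraries a gene therefore has the same SE in each comparison. ALB, the albumin gene, stood at 46230 to 74130 FPKM, and the 13 tested hepatocyte marker genes summed to 71750 to 96860 FPKM, so the tissue label fits its defining genes. The members summed to 36.0 to 88.6 FPKM, so their RNA was a trace of the liver RNA.

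Positions are on Sscrofa11.1, the build the reads were aligned to, as the annotation gives each whole gene. CD3E (chr9:45619730-45633972, plus strand), CD3D (chr9:45640475-45644153, minus strand) and CD3G (chr9:45645243-45656779, plus strand) lie within 37050 bases of chromosome 9. CD3D and CD3G stand head to head with 1089 bases between their starts. GZMA (chr16:34262495-34272084) and GZMA-2 (chr16:34282160-34290422) lie on the plus strand of chromosome 16 with 10075 bases between them. LCK (chr6:88719886-88745922, plus strand) and NKG7 (chr6:58496089-58497827, plus strand) are on chromosome 6, CD247 (chr4:83494266-83586887, plus strand) and CD2 (chr4:103963802-103976971, minus strand) on chromosome 4. CD8A (chr3:57999228-58029768, plus strand) and CCL5 (chr12:39652731-39659121, plus strand) lie on chromosomes 3 and 12.

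The 250 bases before the annotated start are shown for CD3E and CD3G and for the GZMA copies, since each set holds related genes that lie near each other. Each is read 5′ to 3′ on the strand of its gene from the RefSeq genome of Sscrofa11.1. Capitals mark AGGAAG, the core bound by ETS factors, and TGTGGT, the core bound by RUNX factors, on either strand. Both factor families act in T and NK cell development.
CD3E (chr9:45619480-45619729, plus strand): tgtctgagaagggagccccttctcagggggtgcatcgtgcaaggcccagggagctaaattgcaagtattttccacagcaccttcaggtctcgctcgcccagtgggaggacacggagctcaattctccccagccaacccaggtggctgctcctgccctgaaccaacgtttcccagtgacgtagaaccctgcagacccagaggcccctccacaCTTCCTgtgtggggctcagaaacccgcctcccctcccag
CD3G (chr9:45644993-45645242, plus strand): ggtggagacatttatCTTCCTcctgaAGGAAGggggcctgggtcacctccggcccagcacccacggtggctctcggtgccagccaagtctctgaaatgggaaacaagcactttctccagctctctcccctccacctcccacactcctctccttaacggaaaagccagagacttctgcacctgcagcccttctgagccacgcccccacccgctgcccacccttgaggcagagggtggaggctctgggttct
GZMA (chr16:34262245-34262494, plus strand): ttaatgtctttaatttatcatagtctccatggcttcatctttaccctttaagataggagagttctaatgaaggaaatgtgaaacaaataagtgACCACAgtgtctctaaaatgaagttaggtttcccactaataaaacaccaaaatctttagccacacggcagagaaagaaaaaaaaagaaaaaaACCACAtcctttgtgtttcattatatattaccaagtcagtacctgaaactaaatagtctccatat
GZMA-2 (chr16:34281910-34282159, plus strand): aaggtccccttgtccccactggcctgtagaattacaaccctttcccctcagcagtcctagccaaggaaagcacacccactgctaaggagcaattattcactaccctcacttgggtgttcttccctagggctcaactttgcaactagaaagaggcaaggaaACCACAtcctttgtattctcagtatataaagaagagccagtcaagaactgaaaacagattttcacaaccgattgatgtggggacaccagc

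The promoter of CD3D is not reported here. The ETS core lay in this window in 5 of the 10 other members (CD3E, CD3G, CD247, CD8A and NKG7), against 24.8% of 20653 promoters of the same length. The RUNX core lay in 3 members, NKG7 and both GZMA genes, against 14.1% of promoters. CD3G held the ETS core at -235 and -224 from the gene start, on opposite strands, and CD3E at -39. The GZMA promoter held the RUNX core at -157 and -65, and that of GZMA-2 at -90. The core bound by GATA factors, searched as AGATAA, was found in 2 members (8.63% of promoters), the E-box, searched as CACCTG, in 3 (19.4%) and the TATA letters TATAAA in 2, CCL5 and GZMA-2 (10.4%), searched on both strands. These matches are a description of the letters and not of binding.

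The coding sequences of GZMA and GZMA-2, 777 and 780 bases long, were 69.7% identical over 755 aligned bases and shared no stretch of 50 bases (0 of 728 windows). Their FPKM values were therefore read as those of separate genes. GZMA encodes granzyme A, a protease of cytotoxic granules.

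On the FPKM scale, which is per length of transcript, CCL5 had the highest level of the list, 15.1 ± 5.80 FPKM (SD over 9 libraries). CD2 followed at 5.76 ± 1.95, NKG7 at 5.04 ± 1.70, CD247 at 4.52 ± 1.90, CD3D at 3.76 ± 1.71, CD8A at 3.72 ± 2.04 and GZMA-2 at 3.41 ± 1.12 FPKM. CD3E (2.68 ± 1.58), LCK (2.51 ± 0.940) and CD3G (2.48 ± 1.00) came next and GZMA was lowest at 0.686 ± 0.376 FPKM. CCL5 was above CD2 in 9 of 9 libraries and CD3G above GZMA in 9 of 9. All other neighbours in this order changed places in at least 2 libraries, and their means lay within 1 SD of each other.

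**Figure D1:**
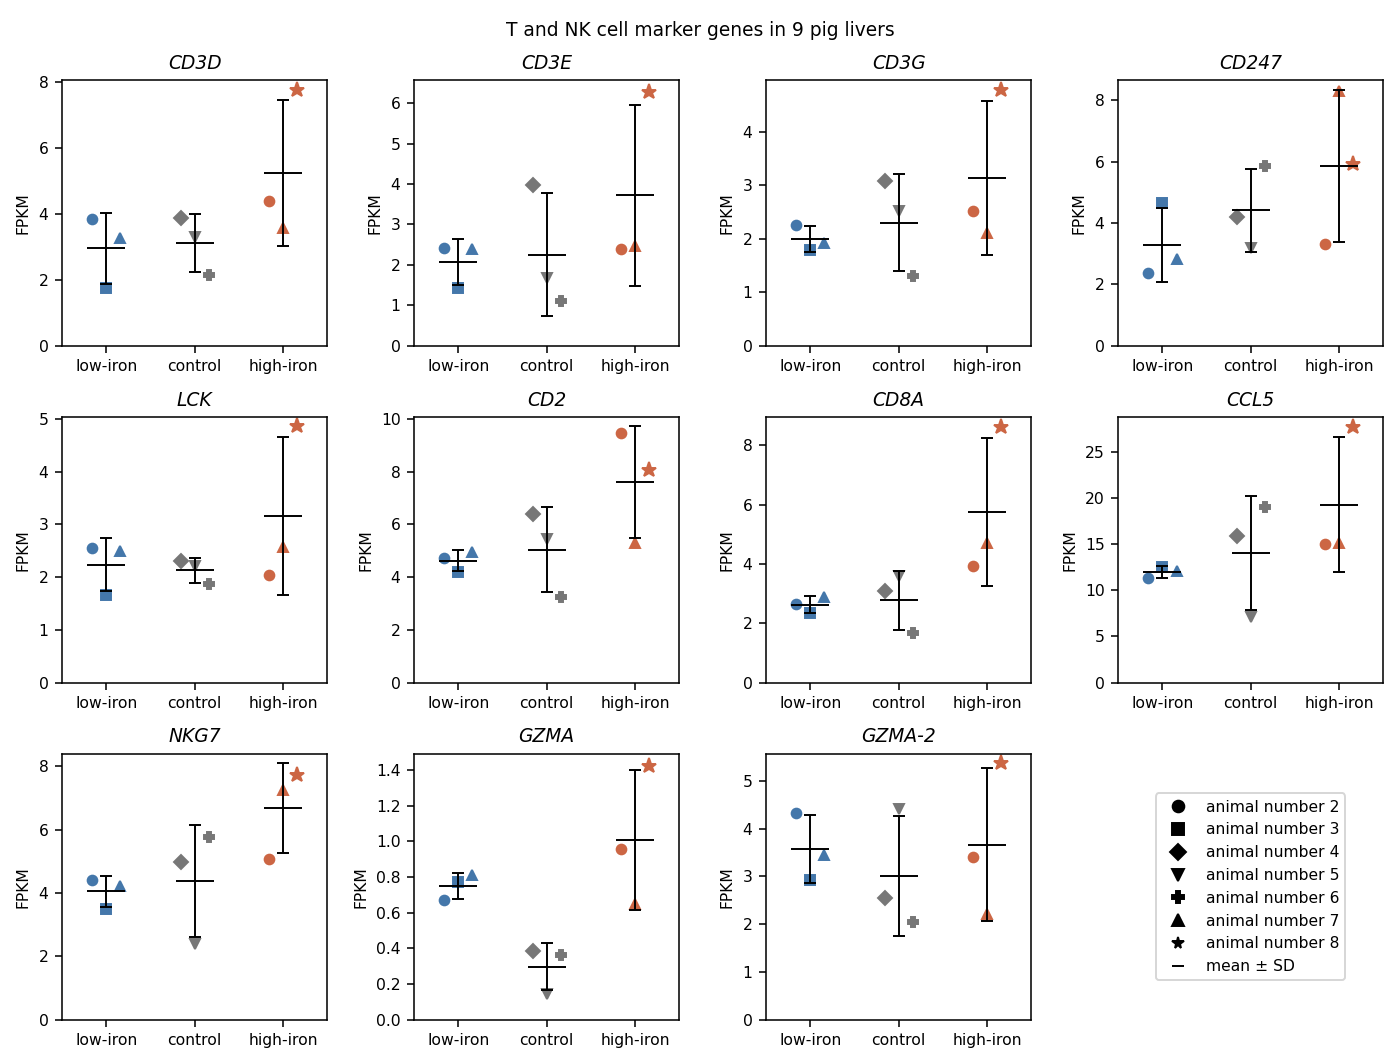
FPKM of each member (vertical axis) in the 3 livers of each diet group (horizontal axis), with a marker shape for each animal number and black bars for the group mean ± SD (n = 3). The liver high-iron 8, the star, is the highest point for 9 of the 11 genes, and the control points of GZMA lie below all other points of that gene.

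The CD3 chains carry the signal of the T cell receptor. CD3D stood at 3.84, 1.76 and 3.25 FPKM in low-iron 2, 3 and 7, at 3.88, 3.295 and 2.15 FPKM in control 4, 5 and 6, and at 4.38, 3.57 and 7.75 FPKM in high-iron 2, 7 and 8. The high-iron group held the highest liver, but high-iron 7 was below control 4, so the groups overlapped. The fitted log2 fold change of high-iron against control was 0.70 ± 0.36 (SE), with a limma adjusted p of 0.916 over all genes tested, and 0.38 ± 0.37 without high-iron 8.

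CD3E stood at 2.41, 1.42 and 2.40 FPKM in the low-iron livers, 3.99, 1.68 and 1.10 FPKM in the control livers and 2.39, 2.48 and 6.29 FPKM in the high-iron livers, in the order of animal numbers given above. Only high-iron 8 exceeded control 4. CD3G stood at 2.26, 1.79 and 1.92 FPKM (low-iron), 3.07, 2.515 and 1.31 FPKM (control) and 2.52, 2.12 and 4.79 FPKM (high-iron). Its groups overlapped in every comparison, as did those of CD3E. For high-iron against control the log2 fold changes were 0.74 ± 0.49 for CD3E (limma adjusted p = 0.933) and 0.43 ± 0.36 for CD3G (adjusted p = 0.958). Without high-iron 8 they were 0.30 ± 0.48 and 0.0874 ± 0.36.

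CD247, the zeta chain, which NK cells also use behind their Fc receptor, followed another order of livers. It stood at 2.39, 4.65 and 2.83 FPKM in the low-iron livers, 4.19, 3.20 and 5.87 FPKM in the control livers and 3.33, 8.30 and 5.92 FPKM in the high-iron livers. Its highest liver was high-iron 7, and control 6, the lowest liver for CD3E and CD3G, was the highest control liver for CD247. High-iron differed from low-iron livers by a log2 fold change of 0.78 ± 0.37 (limma adjusted p = 0.714).

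LCK stood at 2.56, 1.66 and 2.49 FPKM in the low-iron livers, 2.31, 2.21 and 1.87 FPKM in the control livers and 2.05, 2.57 and 4.87 FPKM in the high-iron livers. Apart from high-iron 8 the 8 livers lay between 1.66 and 2.57 FPKM. Against control the log2 fold change was 0.46 ± 0.32 in the high-iron group (limma adjusted p = 0.933) and 0.11 ± 0.28 without high-iron 8.

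CD2, an adhesion receptor of T and NK cells, was high in a different pair of livers. Its values were 4.73, 4.18 and 4.96 FPKM (low-iron), 6.40, 5.47 and 3.26 FPKM (control) and 9.47, 5.28 and 8.07 FPKM (high-iron). Every high-iron liver exceeded every low-iron liver, with high-iron 2 the highest of all. For high-iron livers its log2 fold change was 0.67 ± 0.28 against low-iron (limma adjusted p = 0.687) and 0.60 ± 0.28 against control (adjusted p = 0.901), the former with an unadjusted p under 0.05 but less than 2-fold.

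CD8A, the alpha chain of the co-receptor of cytotoxic T cells, which some NK cells also carry, was highest in the high-iron group. It stood at 2.65, 2.33 and 2.90 FPKM in the low-iron livers, 3.105, 3.58 and 1.67 FPKM in the control livers and 3.94, 4.71 and 8.60 FPKM in the high-iron livers. All 3 high-iron livers lay above all 6 others. The fold was 2.01 against control (log2 1.01 ± 0.34, limma adjusted p = 0.885) and 2.04 against low-iron (log2 1.03 ± 0.34, adjusted p = 0.615), and both passed the unadjusted thresholds of the study, a 2-fold change with p under 0.05. With median-of-ratios scaling these log2 values were 0.89 and 0.99, under the 2-fold threshold. Without high-iron 8 the log2 fold changes were 0.68 ± 0.33 and 0.70 ± 0.33, short of both thresholds, and without control 6 the value against control was 0.69, also short of both. Without low-iron 3 the value against low-iron was 0.95, under 2-fold.

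CCL5, a chemokine that T and NK cells secrete, stood at 11.3, 12.5 and 12.1 FPKM in the low-iron livers, 15.9, 7.125 and 19.0 FPKM in the control livers and 15.0, 15.1 and 27.7 FPKM in the high-iron livers. The low-iron livers lay close together and below all high-iron livers, while the control livers spread from the lowest value to the second highest. It differed by a log2 fold change of 0.62 ± 0.35 for high-iron against low-iron (limma adjusted p = 0.765) and 0.51 ± 0.35 against control (adjusted p = 0.933). Without high-iron 8 these were 0.33 ± 0.36 and 0.22 ± 0.36.

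NKG7, a granule membrane protein of NK cells and cytotoxic T cells, had the same order of control livers as CCL5. Its values were 4.42, 3.50 and 4.23 FPKM (low-iron), 4.97, 2.39 and 5.78 FPKM (control) and 5.07, 7.24 and 7.74 FPKM (high-iron). All high-iron livers exceeded all low-iron livers, and high-iron 2 lay below control 6. In the high-iron group the log2 fold change was 0.69 ± 0.31 against low-iron (limma adjusted p = 0.698) and 0.67 ± 0.31 against control (adjusted p = 0.901), less than 2-fold in both.

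GZMA was the only member called in the low-iron comparison and was lowest in the control group. It stood at 0.669, 0.772 and 0.812 FPKM in the low-iron livers, 0.386, 0.143 and 0.364 FPKM in the control livers and 0.956, 0.647 and 1.43 FPKM in the high-iron livers. Each control liver lay below each of the 6 other livers. GZMA was 2.23-fold higher in low-iron than in control livers (log2 1.16 ± 0.44, limma adjusted p = 1.00) and 2.80-fold higher in high-iron than in control livers (log2 1.48 ± 0.44, adjusted p = 0.885). High-iron and low-iron livers overlapped (log2 0.33 ± 0.44). These levels are under 1 FPKM in 8 of 9 libraries and were under 2-fold with a pseudocount of 1 (log2 0.44 and 0.62), and the call for low-iron against control was lost without low-iron 3 (log2 1.14), low-iron 7 (log2 1.11) or control 5 (log2 0.84). The call for high-iron against control held without high-iron 8 (log2 1.22 ± 0.50).

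GZMA-2, the neighbouring copy with the higher level, did not follow it. It stood at 4.33, 2.93 and 3.45 FPKM (low-iron), 2.55, 4.42 and 2.05 FPKM (control) and 3.40, 2.21 and 5.38 FPKM (high-iron). Control 5, the lowest liver for GZMA, was the second highest for GZMA-2. The log2 fold changes were 0.30 ± 0.36 for low-iron against control, 0.26 ± 0.36 for high-iron against control and -0.04 ± 0.36 for high-iron against low-iron (limma adjusted p = 1.00, 0.994 and 0.993), and all groups overlapped. Whether GZMA and GZMA-2 differed in their response was not tested.

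**Figure D2:**
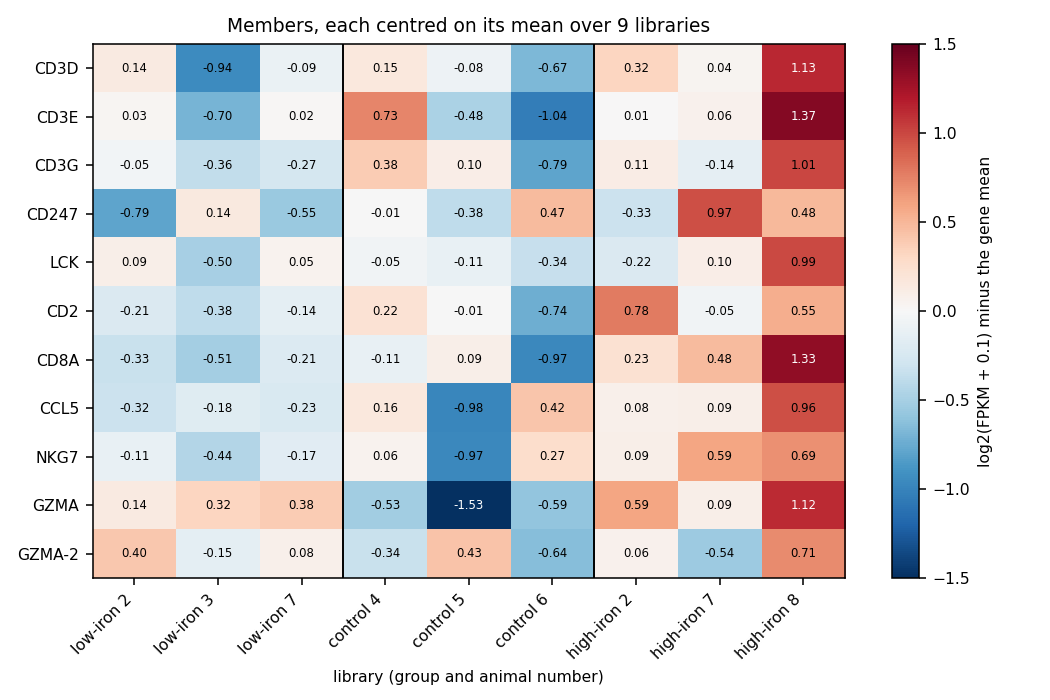
Each member (vertical axis) in each library (horizontal axis, low-iron, control and high-iron livers separated by black lines), coloured and labelled by log2(FPKM + 0.1) minus the mean of that gene over the 9 libraries. High-iron 8 is above the mean for every gene, and in control 6 the CD3 genes, CD2 and CD8A are low while CD247, CCL5 and NKG7 are above their means.

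A gene was called where its fold change was at least 2 with an unadjusted limma p under 0.05, the thresholds of the study. In low-iron against control livers 1 of 11 members was called higher (GZMA) and 0 lower, where 0.596% of all genes tested were called higher and 0.286% lower. Groups did not overlap, with low-iron higher, for 1 member, against 6.1% of all genes. The log2 fold change was above 0 for 4 of 11 members and for 62.7% of all genes, with a median of -0.02 beside 0.08 for all genes. In the other scalings (median-of-ratios and quantile normalization) it was above 0 for 2 members, since CD3E and LCK lay next to 0.

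In high-iron against control livers 2 of 11 members were called higher (CD8A and GZMA) and 0 lower, where 1.27% of all genes were called higher and 0.294% lower. Those 2 were also the members whose groups did not overlap, against 9.14% of all genes. All 11 log2 fold changes were above 0 (65% of all genes), from 0.26 to 1.48, with a median of 0.60 beside 0.10 for all genes. Without high-iron 8 the median was 0.30 beside 0.07, with 10 of 11 above 0 and 1 called (GZMA).

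In high-iron against low-iron livers 1 of 11 members was called higher (CD8A) and 0 lower, where 1.01% of all genes were called higher and 0.532% lower. Groups did not overlap for 4 members, CD2, CD8A, CCL5 and NKG7, against 8.11% of all genes. The log2 fold change was above 0 for 10 of 11 members (53.6% of all genes), with a median of 0.67 beside 0.03, and without high-iron 8 a median of 0.33 beside 0.00333 with 0 called. The comparisons share their groups, so they are not independent of each other. With median-of-ratios scaling the median of all genes for high-iron against control went from 0.10 to -0.01 and that of the members from 0.60 to 0.49, with 11 of 11 above 0, and the genes called higher and lower went from 75 and 36 to 53 and 48, from 160 and 37 to 98 and 52 and from 127 and 67 to 110 and 75 in the 3 comparisons. No member passed adjustment over all genes in any comparison, and over all genes limma gave 0, 1 and 0 genes with an adjusted p under 0.05, with 463, 704 and 900 genes at an unadjusted p under 0.05.

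Over the 3 groups together, the F statistic was set against every assignment of the 9 libraries to 3 groups of 3, and this exact permutation test gave p = 0.0179 for GZMA and p = 0.0464 for CD8A (adjusted over all genes, 0.810 and 0.864). The other 9 members had an exact p between 0.154 (CD2) and 0.732 (GZMA-2). Of all genes tested, 5.37% had an exact p under 0.05. For 3 livers against 3 the exact two-sided permutation test cannot go below 0.1, which every comparison without overlap reached.

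**Figure D3:**
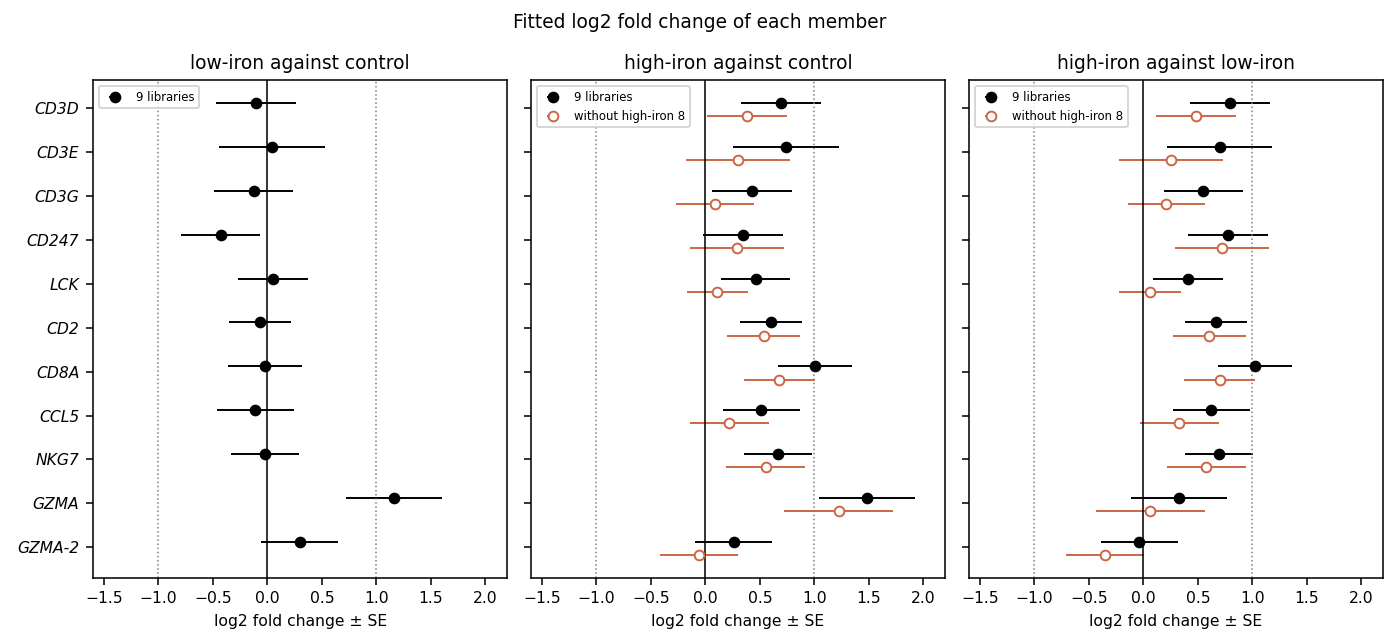
Fitted log2 fold change ± SE of each member (vertical axis) in the 3 comparisons, with filled points for all 9 libraries and open points for the fit without high-iron 8. Dotted lines mark a 2-fold difference. In both high-iron panels the filled points lie to the right of 0 except for GZMA-2 against low-iron, and each open point lies to the left of its filled point.

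The liver high-iron 8 stood apart from the rest. The median member lay 0.99 above its 9-library mean there on the log2 scale, beside 0.09 in both other high-iron livers and 0.06, -0.11 and -0.64 in control 4, 5 and 6. In the low-iron livers 2, 3 and 7 it was -0.05, -0.38 and -0.14. High-iron 8 was the highest library for 9 of 11 members, where it was the highest for 15.7% of all genes tested. CD2 was highest in high-iron 2 and CD247 in high-iron 7. The lowest library was control 6 for 5 members, control 5 for 3, low-iron 3 for 2 and low-iron 2 for 1. The summed FPKM of the members was 41.6, 37.5 and 41.3 in the low-iron livers, 50.7, 36.0 and 44.4 in the control livers and 52.5, 54.3 and 88.6 in the high-iron livers. Higher values of these markers in bulk RNA can come from more T and NK cells or from more of this RNA per cell, and these cannot be told apart.

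Genes that all leukocytes share were also higher in the high-iron livers, without a call. The 15 pan-leukocyte genes summed to 129.0 to 135.9 FPKM in the low-iron livers, 127.2 to 142.8 FPKM in the control livers and 168.0, 173.1 and 237.3 FPKM in high-iron 2, 7 and 8. For high-iron against control 0 of 15 were called, all 15 log2 fold changes were above 0 and their median was 0.48 (0.29 without high-iron 8, again 15 above 0). LAPTM5, a lysosomal membrane protein of blood cells and the highest gene of that list, went from 29.95, 30.1 and 30.3 FPKM in control livers to 42.2, 44.9 and 55.0 FPKM in high-iron livers, past the p threshold and under the 2-fold one (log2 0.64 ± 0.17). The mean log2 level of the members minus that of the pan-leukocyte genes was -1.09 ± 0.06 (SD, n = 3) in low-iron, -1.15 ± 0.21 in control and -0.98 ± 0.18 in high-iron livers. Minus the mean of the hepatocyte genes it was -8.60 ± 0.12, -8.69 ± 0.32 and -7.84 ± 0.43. The part of leukocyte content in the result was not tested.

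Members were put into sets by the order of the livers noticed in these same values, so high r within a set follows in part from that choice. GZMA and GZMA-2 were put in neither set. Over the 9 libraries Pearson's r of log2(FPKM + 0.1) between CD3D, CD3E, CD3G, LCK, CD2 and CD8A was 0.498 to 0.914 in 15 pairs, with a median of 0.840 (median Spearman rho 0.750). Between CD247, CCL5 and NKG7 it was 0.598 to 0.893 in 3 pairs (rho 0.7 to 0.85). Between these sets it was -0.0925 to 0.540 in 18 pairs, with a median of 0.312. Without high-iron 8 the medians were 0.708, 0.589 and -0.148. CD3E with CD3G had the highest r of all 55 pairs, 0.914, and CD247 with GZMA-2 the lowest, -0.499. CD247, although a chain of the T cell receptor complex, had an r of -0.000211 with CD3D, 0.0839 with CD3E and 0.0163 with CD3G, and 0.643 with NKG7. Without high-iron 8 these were -0.35, -0.21, -0.35 and 0.59. The points share library, diet group and scaling, so these values describe the 9 livers only.

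**Figure D4:**
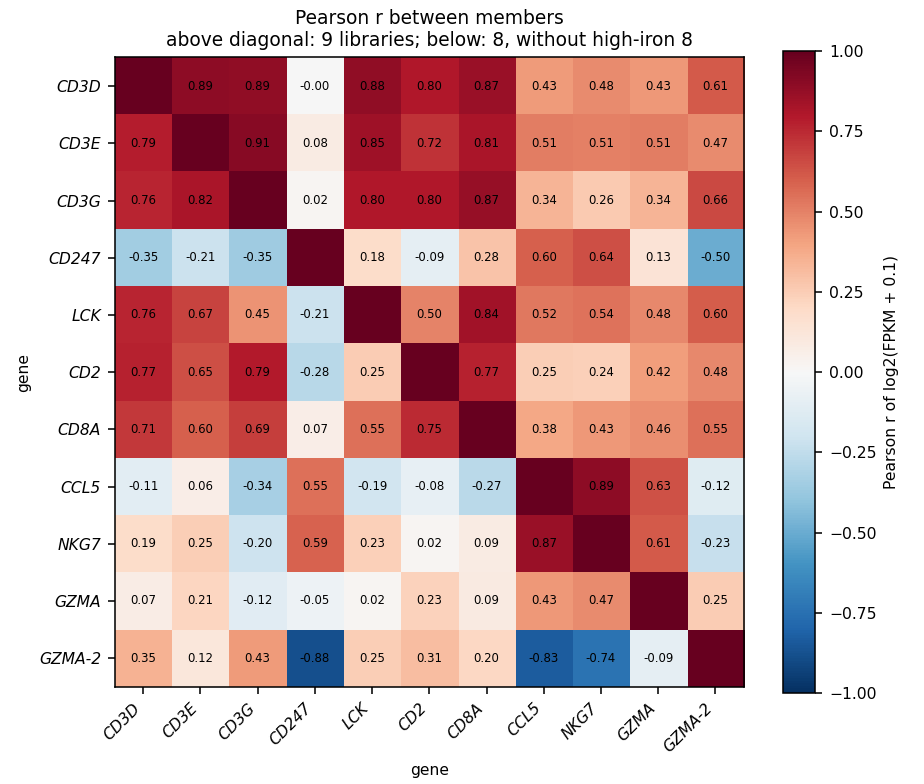
Pearson r of log2(FPKM + 0.1) between each pair of members, over 9 libraries above the diagonal and over the 8 without high-iron 8 below it (both axes list the genes, the colour is r). Pairs within CD3D, CD3E, CD3G, LCK, CD2 and CD8A lie between 0.498 and 0.914 above the diagonal and between 0.251 and 0.819 below it. Above the diagonal CD247 is near 0 with the CD3 genes and higher with CCL5 and NKG7. Below it CD247 has -0.35, -0.21 and -0.35 with CD3D, CD3E and CD3G, and 0.55 and 0.59 with CCL5 and NKG7.

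Other genes of the T and NK pathways were taken from 8 lists with 123 symbols, 119 of them in the table and 78 tested. For low-iron against control 1 of the 78 was called higher, for high-iron against control 4 and for high-iron against low-iron 3, with 0 called lower, where 0.596%, 1.27% and 1.01% of all genes were called higher. Log2 fold changes were above 0 for 44, 65 and 64 of the 78, and for 62.7%, 65% and 53.6% of all genes. Without high-iron 8 the calls higher were 1, 0 and 1, where 0.604%, 1.08% and 1.02% of all genes were called higher. The calls lower were then 0, 2 and 1, where 0.278%, 0.604% and 0.731% of all genes were called lower. In that fit 44, 52 and 54 of the 78 were above 0 (62.7%, 59.9% and 50.5% of all genes).

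The T cell receptor complex and co-receptors gave 0 calls among 8 tested genes in all comparisons, with all 8 above 0 for high-iron against control (median 0.41) and against low-iron (median 0.61), and without high-iron 8 medians of 0.25 and 0.23 with 6 of 8 above 0 in both. Its highest gene, PTPRC, the phosphatase CD45, stood at 9.56 to 12.9 FPKM in low-iron, 10.1 to 13.4 in control and 14.4 to 22.2 FPKM in high-iron livers. Receptor-proximal kinases and adaptors gave 0 calls among 12, with 11 above 0 in the high-iron group (median 0.56 against control and 0.28 against low-iron). Without high-iron 8 these medians were 0.32 and 0.11, with 8 and 7 of 12 above 0. LCP2, the adaptor SLP-76, stood at 3.997 to 4.96 FPKM in control and 5.91 to 7.84 FPKM in high-iron livers. A list of lymphocyte cytokine receptors, which also holds the cytokines IL7 and IL15 (7 tested), and a list of transcription factors (10 tested) gave 0 calls as well. For high-iron against control their medians were 0.25 and 0.22, and 0.34 and -0.00145 without high-iron 8. IL10RA, the highest of the former and a chain of an interleukin receptor, stood at 4.56 to 5.27 FPKM in low-iron, 4.09 to 5.285 FPKM in control and 6.785 to 8.13 FPKM in high-iron livers, without overlap. ID2, an inhibitor of E proteins and the highest of the latter, stood at 25.9 to 63.3 FPKM with the highest value in low-iron 3. Of the checkpoint receptors only HAVCR2 was tested, without a call, and CTLA4, the inhibitory receptor of activated and regulatory T cells, was listed at 0 in all 9 libraries.

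Cytotoxic granule genes gave 1 call among 11. CST7, cystatin F of cytotoxic cells, stood at 1.61, 1.53 and 2.69 FPKM in the low-iron livers, 2.196, 0.434 and 2.395 FPKM in the control livers and 4.99, 2.78 and 7.39 FPKM in the high-iron livers. It was called against control (3.30-fold, limma adjusted p = 0.885) and against low-iron (2.42-fold, adjusted p = 0.697). Both calls were lost without high-iron 8 (log2 1.4 and 0.95). GZMH, a granzyme, was then called lower in high-iron than in control livers (log2 -1.28) and low-iron livers (log2 -1.38), with 0.375 and 0.849 FPKM in high-iron 2 and 7, 6.39 FPKM in high-iron 8 and 0.960 to 2.82 FPKM in the other groups.

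NK receptors and adaptors gave 1 call in each high-iron comparison among 9 tested genes. HCST, the DAP10 adaptor of the receptor NKG2D, was 2.75-fold higher than in control livers, at 1.56, 1.06 and 2.23 FPKM against 0.542, 0.262 and 0.821 FPKM (limma adjusted p = 0.892). CD96, a receptor of T and NK cells, was 2.82-fold higher than in low-iron livers, at 0.690, 0.501 and 1.30 FPKM against 0.290, 0.151 and 0.203 FPKM (limma adjusted p = 0.656). Neither was called without high-iron 8, where KLRB1, the receptor CD161, was called lower than in control livers (log2 -1.05, against -0.64 with all libraries).

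Among 20 tested genes of lymphocyte chemokines, homing and adhesion, the calls fell on CCL4, CCR2 and CCL19. CCL4, a chemokine of activated T and NK cells and macrophages, stood at 11.4, 5.43 and 10.7 FPKM in low-iron livers and 4.99, 1.39 and 4.21 FPKM in control livers (2.76-fold higher, limma adjusted p = 1.00). CCR2, the receptor for CCL2 on monocytes and some T cells, was higher in high-iron livers, at 2.10, 3.03 and 2.96 FPKM, than in control (1.47, 1.03 and 1.345 FPKM) and low-iron livers (0.838, 1.29 and 1.07 FPKM), without overlap. Its fold was 2.40 against low-iron (limma adjusted p = 0.521) and 2.02 against control (adjusted p = 0.885). The call against low-iron held without high-iron 8 (log2 1.19), while against control the log2 fold change was then 0.94, under the 2-fold threshold. CCL19, a chemokine that draws T cells to lymphoid tissue, was called against control (2.11-fold, limma adjusted p = 0.892), led by high-iron 8 at 46.5 FPKM, with 7.61 to 17.2 FPKM in the other libraries. Without high-iron 8 that call was lost (log2 0.56).

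**Figure D5:**
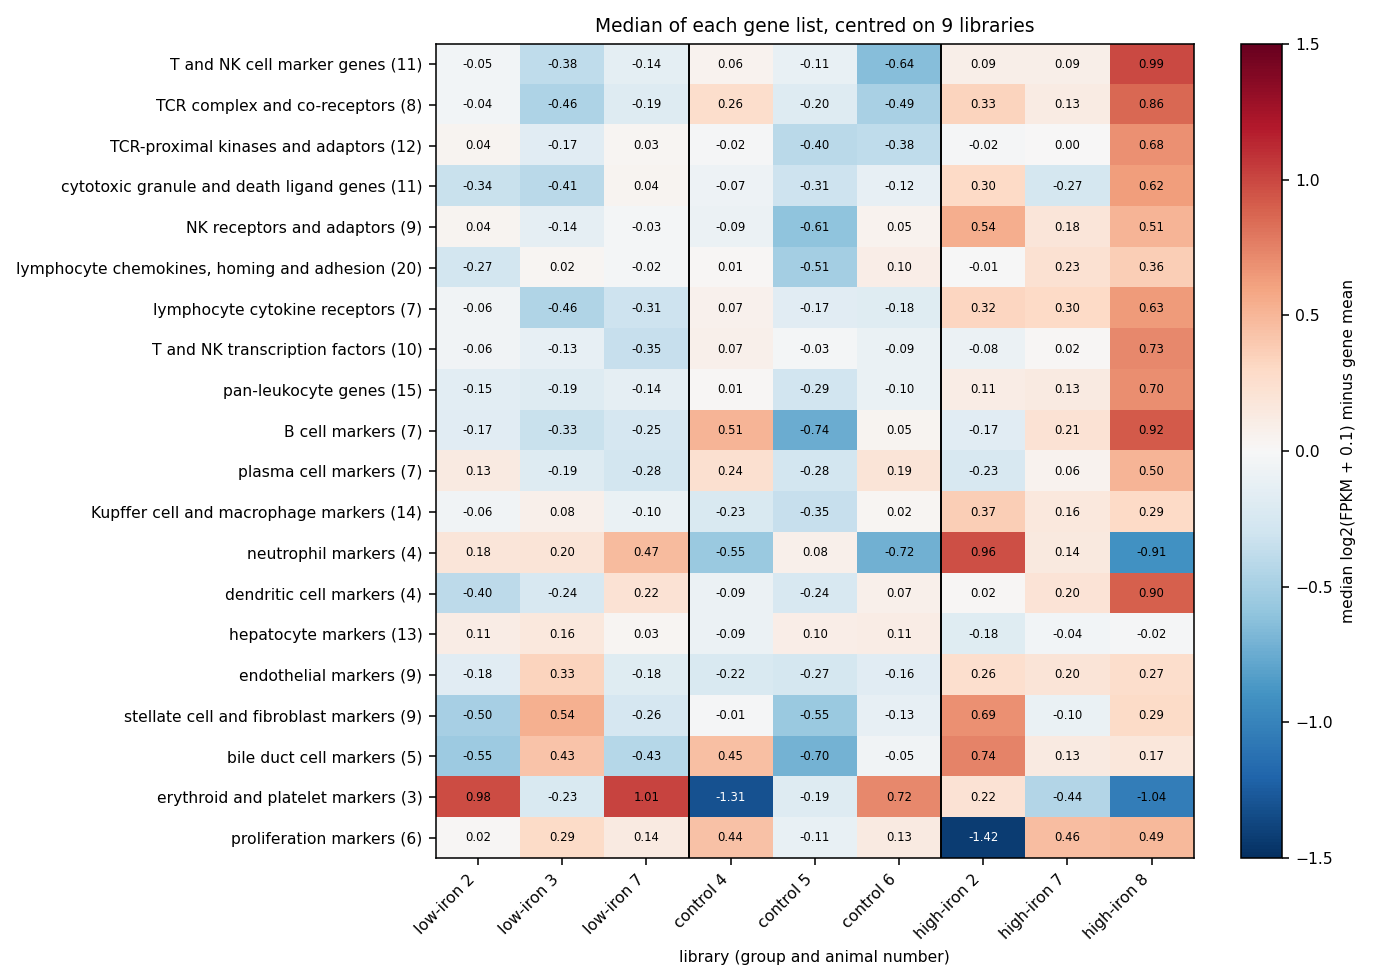
Median over the tested genes of each list (vertical axis, number of tested genes in brackets) of log2(FPKM + 0.1) minus the gene mean, in each library (horizontal axis). In high-iron 8 the members (0.99), B cell markers and dendritic cell markers are high while erythroid and neutrophil markers are low, and the hepatocyte markers stay near 0 in all libraries.

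Markers of other cells were read beside the members. B cell markers gave 1 call higher in each comparison among 7 tested genes. For low-iron against control only 1 of the 7, the called gene, was above 0, with a median log2 fold change of -0.41. For high-iron against control 6 were above 0 (median 0.20) and against low-iron all 7 (median 0.55). Without high-iron 8 these were 4 and 5 of 7 (medians 0.16 and 0.41). CD72, a B cell surface protein, was called in low-iron (2.39-fold) and high-iron livers (3.47-fold) against control, and BANK1, a B cell adaptor, in high-iron against low-iron livers (2.12-fold; limma adjusted p = 1.00, 0.885 and 0.596). Without high-iron 8 the call of CD72 in low-iron livers was lost and the other calls held. Among plasma cell markers JCHAIN, the joining chain of antibodies, was called 2.22-fold higher in high-iron than in low-iron livers (adjusted p = 0.615), 1 of 7 tested. With all libraries only 3 of these 7 were above 0 in that comparison, with a median log2 fold change of -0.14. The call of JCHAIN was lost without high-iron 8. In that fit POU2AF1 of the same list was called lower in high-iron than in control livers (log2 -1.005, against -0.63 with all libraries). Among 4 tested neutrophil markers S100A12 was called in low-iron against control livers, with control 5 and 6 at 0. Without high-iron 8, which also stood at 0, it was called higher in high-iron than in control livers too (log2 2.39, against 1.26 with all libraries). MPO and ELANE, which define neutrophil precursors, were under the filter. Dendritic cell markers (4 tested, highest IRF8) gave 0 calls, and they were highest in high-iron 8, which summed to 16.5 FPKM beside 6.65 to 10.9 FPKM in the others.

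Kupffer cell and macrophage markers (14 tested) summed to 1253 to 1419 FPKM in low-iron, 1101 to 1407 FPKM in control and at least 1401 FPKM in high-iron livers. The call in that list was LYZ, lysozyme, in high-iron against control livers, where control 4 and 5 were listed at 0. For high-iron against control the median log2 fold change was 0.48 for these markers, 0.45 for 9 endothelial and 0.57 for 9 stellate cell and fibroblast genes, and 0.51, 0.49 and 0.63 without high-iron 8, where that of the members was 0.60 and then 0.30. Endothelial and stellate cell lists gave calls higher in high-iron than in control livers for VWF, COL1A1 and RGS5, and the bile duct list for SPP1 against low-iron. Hepatocyte genes (13 tested) gave 0 calls in all comparisons, with a median of -0.10 for high-iron against control, and without high-iron 8 1 gene, CPS1 of the urea cycle, was called lower there. Erythroid and platelet markers (3 tested, 0 calls) were led by HBB, a globin gene, at 208.8 to 2433 FPKM, lowest in control 4, and proliferation markers (6 tested, highest TOP2A) gave 0 calls. The part of these other cells in the result for the members was not tested.

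The genes whose level over the 9 libraries was most like the mean log2 level of the members were ranked by Pearson's r among 11113 named genes. RCAN3, a regulator of calcineurin, came first at 0.965 (Spearman rho 0.917, and 0.936 without high-iron 8). RASGRP1, which activates Ras behind the T cell receptor, followed at 0.945 (0.803 without high-iron 8). SEMA4A, ARHGAP45, ITGB7, ETS1, DOCK8, DOCK10, WIPF1 and FAM198B came next at 0.935 to 0.920. DOCK8, an exchange factor of lymphocyte migration, had the same order of livers as the members (rho 1.0), and ETS1, a transcription factor of the ETS family, had an r of 0.516 once the 2 libraries farthest from the median, control 6 and high-iron 8, were left out.

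CD3E was most like RCAN3 (0.961), FGD6 (0.948) and ITFG1 (0.943), and NKG7 was most like DACT3 (0.970), GIMAP6 (0.959) and MYRF (0.948). For NKG7 these values without high-iron 8 were 0.974, 0.946 and 0.949. All r are over 9 libraries that share diet groups and scaling, and the genes at the top of such a ranking are the highest of many.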

How the data were processed

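Poly(A) RNA of 9 pig livers, 3 per diet group, was sequenced as paired-end reads. After adapters and poor reads had been filtered out, the authors mapped the rest to Sscrofa11.1 with HISAT2, assembled transcripts by StringTie and deposited FPKM values in a single table, with no counts and no further scaling stated. FPKM is relative to the other RNA of a library. Row numbers were matched to genes by their serial number in NCBI annotation release 106: all 20660 numbered rows fell on protein-coding genes, and 15031 with the numbering shifted by 1.

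Groups were taken from the series description, replicates from the animal numbers. The study's count test was not possible on FPKM. Values were analysed as log2(FPKM + 0.1), so folds of low genes are understated, where the mean FPKM reached 0.5, by limma 3.58.1 in R 4.3.3 on the 3 groups (6 residual degrees of freedom, trend), with Benjamini-Hochberg adjustment over 12584 genes. A gene was called at a fold of at least 2 and unadjusted p under 0.05. Exact permutation tests were run in Python 3.11.15 (pandas 2.3.3, scipy 1.17.1, numpy 2.4.6), and sequences were read with pysam 0.24.0. The procedure was tested on simulated data. Alternatives were other pseudocounts, filters, scalings, weights, samples and a replicate block.

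The members and lists were chosen with earlier results of these data known, so list counts are descriptions. Named genes are all members, called genes of each list or else its highest gene, and the genes most like the members, namely 10 for the mean and 3 each for CD3E and NKG7. Some items are not reported here. Genes named as absent, and those named as called lower without high-iron 8, were chosen after their values were seen.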

Additional observations from a re-analysis of the deposited data

How the results depend on the processing

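The counts of called members rest on few calls near the thresholds. With a pseudocount of 1, 0 members were called in all 3 comparisons, by the construction of the smaller folds. For low-iron against control the count (1) was also 0 with a mean FPKM of at least 1, which leaves GZMA untested, and with array quality weights, and 0 to 1 when each library was left out. For high-iron against control (2) it was 1 with that filter, with median-of-ratios scaling and with quantile normalization, and 1 to 3 on leaving out a library, with 1 without control 6 or high-iron 8 (CD8A lost) and 3 without control 4 (with CD3E). For high-iron against low-iron (1) it was 0 with both scalings and 0 to 2 on leaving out a library, 0 without high-iron 8 and 2 without low-iron 2 (with CD3D), high-iron 2 (with CD247) or high-iron 7 (with CD3D), and without low-iron 3 the called member was CD247 in place of CD8A. The cause was not tested. Median log2 fold changes ranged over the left-out libraries from -0.21 to 0.11, from 0.30 to 0.79 and from 0.33 to 0.77.

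Animal numbers 2 and 7 occur in both the low-iron and the high-iron group, and the labels do not say whether such animals share more than a number. The r of deviations from the group means was 0.0183 and 0.0213 for these pairs. For low-iron and high-iron livers with different numbers it was -0.159 to 0.160. In the 4 libraries with these numbers, 0 members were called with that replicate block and 0 without it. The median for high-iron against low-iron was 0.16 there, with LCK at -0.13. These fold changes come from the choice of libraries, since the block cannot change them in this balanced design. With the block 457 genes were called, against 413 in the same libraries without it.

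Directions turned mostly where the value was near 0. For low-iron against control CD3E was -0.0304 and LCK -0.0263 (median-of-ratios), CD3E -0.0326 and LCK -0.0174 (quantile), and CD3E -0.168 with array weights. On leaving out a library, values ranged from -0.34 to 0.54 for CD3E, -0.0547 to 0.24 for LCK, -0.40 to 0.22 for NKG7, -0.34 to 0.22 for CD3D, -0.47 to 0.12 for CD3G, -0.35 to 0.12 for CD2, -0.34 to 0.19 for CD8A and -0.53 to 0.17 for CCL5. GZMA-2 ranged from -0.0568 to 0.57 for high-iron against control and from -0.35 to 0.27 against low-iron, where array weights gave 0.0857. Of 602 values of single members under the alternatives, 550 kept direction and call. Many of them could not turn. Leaving out a library of the third group, fitting only the groups compared or changing the filter leaves the log2 fold change as it was. Most members were not called to begin with, so this count does not measure stability.

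Quantile normalization gave 51 genes called higher and 46 lower, 83 and 68, and 85 and 99 in the 3 comparisons. Over all genes a pseudocount of 1 gave 34, 74 and 67 calls, no filter 331, 504 and 458 among 20703 genes, array weights 171 and 334 for the low-iron comparison and high-iron against low-iron, and leaving out a library up to 209, 296 and 333. The study lists the mapped reads of each library, but counts per gene are not part of the table. The counting error of genes near 1 FPKM such as GZMA was not worked out.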
